A study of Mus musculus with 12 samples.

Results

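Prostaglandin synthesis and receptor genes were followed as a set of 10 genes, Ptgs1, Ptgs2, Ptges, Ptgis, Ptgds, Hpgd, Ptger2, Ptger3, Ptger4 and Ptgfr. They were chosen by symbol from the 27998 genes listed in each of 12 single-cell RNA sequencing matrices of mouse mammary gland, and each symbol had 1 entry in the gene list. Each matrix holds unique molecular identifiers (UMIs, counts of captured RNA molecules) per gene and cell, and there was 1 library per treatment group. The study asked how mammary fibroblasts respond to ovarian hormones in a menopause model. Levels are given for 4 marker-gated fibroblast subsets and macrophages, in UMIs per 1000000 UMIs of the summed cells (CPM). Each gene is compared between populations and libraries, and levels of different members are not ranked against each other.

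All animals were C57BL/6J mice aged 43 weeks at harvest. Intact mice received no VCD. In the other 11 groups VCD (4-vinylcyclohexene diepoxide, which depletes ovarian follicles) was injected at 160 mg/kg per day for 15 days from 9 weeks of age, so follicle loss is shared by the 9 groups in the hormone tests, and Intact differs from them in this too. Feeding of a special diet began 100 days after VCD onset and lasted 20 weeks, with hormones in its last week and sesame oil as their vehicle. VCD_Vehicle received no hormone, VCD_E2 received estradiol (E2, 1 µg per animal per day for 1 week), and VCD_E2_P4 received E2 with progesterone (P4, 1 mg per animal per day). VCD_E2_ICI received E2 and 1 injection of 5 mg of ICI, an estrogen receptor antagonist. The same 3 hormone states were repeated with polybrominated diphenyl ethers (PBDEs, flame retardants) in the diet. The low level gave 0.05 mg/kg per day of the main congener for 20 weeks (VCD_Low_PBDE, VCD_Low_E2, VCD_Low_E2_P4) and the high level gave 1 mg/kg per day for 1 week (VCD_High_PBDE, VCD_High_PBDE_E2, VCD_High_PBDE_E2_P4), so the amount of PBDE and its time of feeding cannot be told apart. VCD_Vehicle_NormEnv was a further vehicle group with no hormone, and the sources used here do not say what its suffix stands for. The number of animals per library was not given in the sources used here. The deposited names carry 2 codes, not explained there, 1 for Intact, VCD_Vehicle, VCD_E2, VCD_E2_P4 and VCD_Low_PBDE and the other for the rest, so that at the low level the code and the hormone cannot be told apart. With 1 library per group, the tests below took the 3 PBDE levels as replicates of a hormone state, and the p-values measure the spread between libraries. Intact, VCD_E2_ICI and VCD_Vehicle_NormEnv were outside that layout and are given as values with 95% Poisson intervals, which cover counting error only, and "without hormone" below means the 3 libraries VCD_Vehicle, VCD_Low_PBDE and VCD_High_PBDE.

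Prostaglandins are short-range lipid signals made from arachidonic acid. The cyclooxygenases Ptgs1 and Ptgs2 convert it to prostaglandin H2, terminal synthases turn that into prostaglandins E2, D2, F2α or prostacyclin, and each product acts on its own G protein-coupled receptors on nearby cells until it is taken up and oxidised. Ptgs2 is an inducible early response gene in many cell types, and prostaglandin signalling is known in the mammary gland for its part in inflammation, vascular tone and tumour growth.

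The 12 libraries held 58620 cell barcodes, 2497 to 10006 each, and 41737881 to 109224969 UMIs each. The median UMIs per barcode were lowest in VCD_Low_E2_P4 (6628.5), the library with 10006 barcodes. VCD_E2_ICI came next (12257.5), and the highest median was 17921 in VCD_E2_P4. After filtering, 46257 barcodes remained, of which 30147 were fibroblasts, and 22917 cells were assigned to 1 of the 5 populations. A fibroblast was assigned to the subset whose 5 or 6 marker genes had the highest mean standardised level in that cell, by a margin of at least 0.5 SD. This placed 10692 cells as Fib_0-like (the Dpp4+ fibroblasts), 5060 as Fib_1-like (Fabp4, Lpl), 3012 as Fib_2-like (Postn, Enpp2) and 3341 as Fib_3-like (Gdf10, F3), left 8042 fibroblasts unassigned, and took 812 cells as macrophages. A total of 2856 fibroblasts lay within 0.1 of the margin. Checked on markers that the gates themselves use, Dpp4 was found in 99.1% of Fib_0-like cells and in 21.3% to 34.2% of cells of the other subsets, and C1qb was found in 99.0% of macrophages. Each library gave 609 to 1550 Fib_0-like cells, 123 to 674 Fib_1-like, 120 to 456 Fib_2-like, 139 to 487 Fib_3-like and 37 to 118 macrophages. The libraries shared 740 barcode sequences, carried by 337 of the 22917 assigned cells, and without those cells (an alternative chosen after seeing the data) no count of members called moved by over 1.5 times. No prostaglandin gene was used in the gates, but the gates were rebuilt here and may differ from the clusters of the study.

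The cyclooxygenase genes are shown with their promoters because both were higher in Fib_0-like cells than in the other subsets, and Ptger3 because it was lower there. RefSeq promoter windows were used for 9 of the 10 genes, and that of Ptgis was not analysed here. Each window runs from 250 bases before to 30 bases from the RefSeq start onward, on GRCm38.p6, written 5′ to 3′ on the plus strand, on which these 3 genes lie. Capitals in the Ptgs2 window mark ACGTCA, the core of a cyclic AMP response element (CRE), overlapping CACGTG, an E-box.
Ptgs1 (chr2:36230176-36230455, +): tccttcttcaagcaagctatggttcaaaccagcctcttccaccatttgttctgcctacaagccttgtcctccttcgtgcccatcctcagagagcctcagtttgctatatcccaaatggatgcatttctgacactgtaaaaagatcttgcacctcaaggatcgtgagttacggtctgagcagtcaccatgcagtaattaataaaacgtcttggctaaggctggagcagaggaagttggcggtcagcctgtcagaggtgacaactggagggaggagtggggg
Ptgs2 (chr1:150099781-150100060, +): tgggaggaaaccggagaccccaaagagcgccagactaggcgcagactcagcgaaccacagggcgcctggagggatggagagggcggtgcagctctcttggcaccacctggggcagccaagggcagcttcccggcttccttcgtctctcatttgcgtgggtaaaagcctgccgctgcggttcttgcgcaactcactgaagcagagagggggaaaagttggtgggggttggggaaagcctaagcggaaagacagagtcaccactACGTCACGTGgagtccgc
Ptger3 (chr3:157566626-157566905, +): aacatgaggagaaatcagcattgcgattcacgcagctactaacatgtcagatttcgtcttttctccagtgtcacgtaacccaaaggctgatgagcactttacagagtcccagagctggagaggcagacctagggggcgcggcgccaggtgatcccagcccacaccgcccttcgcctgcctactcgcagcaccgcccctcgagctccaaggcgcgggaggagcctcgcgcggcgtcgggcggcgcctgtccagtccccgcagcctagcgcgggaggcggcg
Both strands of the 9 windows were searched for the E-box and the CRE core, as spelled above, for the TATA box, for the full CRE (TGACGTCA, which contains the CRE core) and for the palindromic estrogen response element (its consensus arms with 3 bases between them). The letters taken for the TATA box were TATAAA. Ptgs2 matched the E-box and the CRE core, Hpgd matched the TATA box, and no other match was found in these windows. Each match lay after the RefSeq start and not before it, at position 16 for the E-box, 12 for the CRE core and 4 for the TATA box. Of 32851 promoters of the same length, 6.79% hold the E-box, 13.1% the TATA box, 0.067% the estrogen response element, 1.74% the full CRE and 7.26% the CRE core. A match describes letters and not a bound site.

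Ptgs2 and Ptgis, for the inducible cyclooxygenase and the prostacyclin synthase, were, among the 5 populations, highest in Fib_0-like cells, the prostaglandin E synthase gene Ptges and the inactivating dehydrogenase gene Hpgd in Fib_1-like cells, and the receptor genes Ptger3 and Ptgfr in Fib_2-like cells. Of the 5 populations, macrophages held the highest levels of the receptor genes Ptger4 and Ptger2 and, with Fib_0-like cells, of Ptgs1. These orders were tested by edgeR on UMIs summed per library and population, with library as a block, each subset against the mean of the other 3 and macrophages against the mean of the 4 subsets. Of the 9 members tested (Ptgds was too low), 7 were called in Fib_0-like cells (3 higher, 4 lower), where 66.8% of all 13096 genes tested were called. All 9 were called in Fib_1-like cells (5 higher, 4 lower, background 53%), 7 in Fib_2-like cells (4 higher, 3 lower, background 56.8%), 7 in Fib_3-like cells (4 higher, 3 lower, background 44.8%) and 8 in macrophages (4 higher, 4 lower, background 80.3%). With backgrounds this high the counts are no result about the set, and the single genes are described below. The median log2 fold change of the members tested was -0.47 for Fib_0, 0.38 for Fib_1, 0.02 for Fib_2, 0.31 for Fib_3 and -0.46 for macrophages, beside medians over all genes of 0.00, -0.02, 0.02, -0.03 and -0.20.

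**Figure D1:**
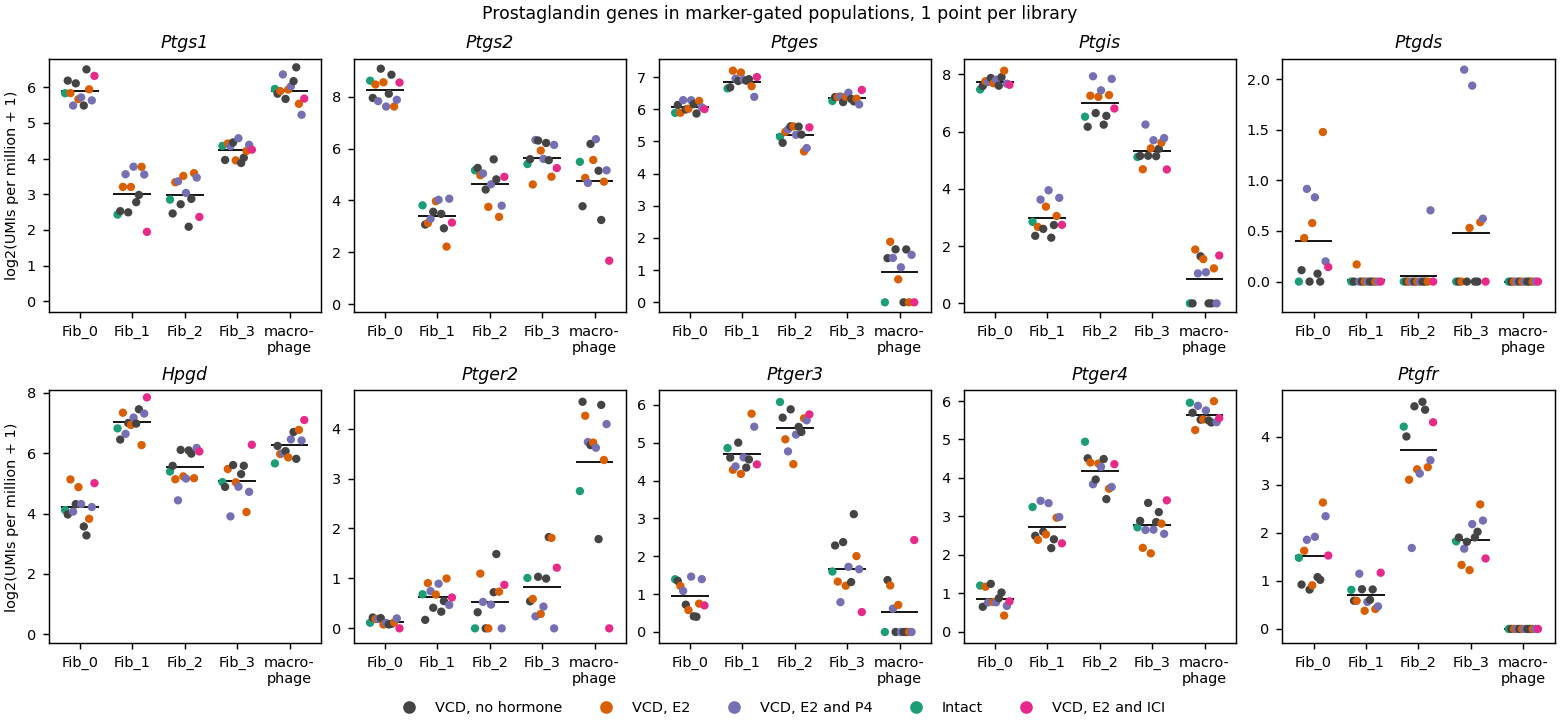
Level of each of the 10 genes as log2(CPM + 1) in the 4 fibroblast subsets and macrophages, with 1 point per library coloured by hormone state and a line at the mean of the 12 libraries. Ptgs2 and Ptgis stand highest in Fib_0, Ptges and Hpgd in Fib_1, Ptger3 and Ptgfr in Fib_2, and Ptger2 and Ptger4 in macrophages, while Ptgds stays near 0.

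Ptgs1, the cyclooxygenase that many cells express at a steady level, lies on chromosome 2 (36230426-36252272, plus strand, ENSMUSG00000047250, mm10) and overlaps an antisense gene. Its level was 60.6 ± 15.6 CPM (SD, n = 12 libraries) in macrophages and 59.9 ± 14.4 in Fib_0-like cells, and macrophages were the higher of the pair in 7 of 12 libraries, so these neighbours did not differ beyond their spread. Fib_3-like cells followed with 18.1 ± 2.95 CPM, below Fib_0-like cells in 12 of 12 libraries. Fib_1-like (7.73 ± 3.37) and Fib_2-like cells (7.27 ± 2.67) came last and were not separated from each other, with Fib_1-like cells higher in 7 of 12 libraries. Fib_0-like cells differed from the other subsets by a log2 fold change of 2.60 (SE 0.10, adjusted p = 1.63e-28) and macrophages from the subsets by 1.80 (SE 0.14, adjusted p = 7.75e-17). Among smaller cell classes, endothelial-like cells (83 cells, named from 4 markers) had 39.6 CPM of Ptgs1 (95% Poisson interval 29.4 to 52.2).

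Ptgs2 lies on chromosome 1 (150100031-150108227, plus strand, ENSMUSG00000032487) and overlaps no other annotated gene. Fib_0-like cells had 322 ± 110 CPM (SD, n = 12), from 195.5 in VCD_Low_E2_P4 to 539 in VCD_Low_PBDE, and the lowest Fib_0 value lay above the highest of every other population. Fib_3-like cells had 52.6 ± 19.1 CPM, macrophages 34.4 ± 23.7, Fib_2-like cells 26.3 ± 11.2 and Fib_1-like cells 10.1 ± 3.83. Macrophages and Fib_2-like cells were not separated (macrophages higher in 6 of 12 libraries), nor clearly Fib_3-like cells and macrophages (9 of 12). On the log2 scale Fib_0-like cells were higher by 3.81 (SE 0.15, adjusted p = 1.83e-29), a 14.0-fold difference, and the change in Fib_1-like cells was -2.95 (SE 0.20, adjusted p = 3.60e-18). Macrophages did not pass the test (-0.46, SE 0.22, adjusted p = 0.0528), but were called in 4 of 20 alternatives, without VCD_Low_PBDE (-0.54, adjusted p = 0.0368), without VCD_Low_E2_P4 (-0.62, adjusted p = 0.0116), with gates from the markers in the study text (-0.55, adjusted p = 0.013) and by DESeq2 (-0.52, adjusted p = 0.0153). The Fib_0 level was carried unevenly by the cells. A Ptgs2 UMI was found in 6576 of 10692 Fib_0-like cells (61.5%), the median cell had 1 UMI, the 90th percentile was 18 and the highest cell 134, and the 10% of cells with the most Ptgs2 UMIs held 57.0% of them. T cells serve here as background, but were selected for few fibroblast-marker UMIs, which can lower it. Of 1515 T cells (median 5746 UMIs against 18586.5 in Fib_0-like cells), 1.72% had a Ptgs2 UMI. Thinned to 5000 UMIs per cell (491 shallower Fib_0-like cells left out), 44.4% of Fib_0-like cells, 12.5% of Fib_3-like cells and 3.18% of Fib_1-like cells still had 1. Neutrophil-like cells (183 cells with a median of 2867 UMIs) reached 420.5 CPM (interval 367 to 479.5) with a UMI in 48.1% of cells.

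Ptgs2 belongs to the genes that cells can switch on within minutes, so 12 immediate early genes (Fos, Jun, Egr1, Atf3 and others) are given beside it. Their summed level in libraries without hormone was 11621 to 12746 CPM in Fib_0-like cells, 27354 to 36127 in Fib_1-like cells, 22710 to 30309 in Fib_2-like cells and 19568 to 23759 in Fib_3-like cells. VCD_Vehicle_NormEnv had 9449 CPM for Fib_0, 30134 for Fib_1, 25601 for Fib_2 and 17430 for Fib_3. In these libraries the subset with the highest Ptgs2 level thus had the lowest immediate early level of the 4. The subset with the lowest Ptgs2 level had the highest. With E2, Fib_2-like cells were below Fib_0-like cells in VCD_E2_P4 (8745 against 11252 CPM), VCD_Low_E2_P4 (9900 against 10649) and VCD_High_PBDE_E2 (11628 against 12718). In the other E2 libraries of the layout Fib_0-like cells stayed the lowest. The part of the immediate early genes in the Ptgs2 level was not tested.

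The 3 terminal synthases differed in where they were found. Ptges, for the inducible prostaglandin E synthase, lies on chromosome 2 (30889471-30929863, minus strand, ENSMUSG00000050737) and overlaps Gm13400 on the same strand, so reads of that locus are uncertain. It had 117 ± 17.7 CPM in Fib_1-like cells, 80.8 ± 7.21 in Fib_3-like, 66.5 ± 7.20 in Fib_0-like cells, while Fib_2-like cells had 36.5 ± 6.5, and the order of Fib_1, Fib_3, Fib_0 and Fib_2 held in 12 of 12 libraries at each step. Against the other subsets the log2 fold change was 1.00 (SE 0.06, adjusted p = 3.04e-21) in Fib_1-like and -1.33 (SE 0.07, adjusted p = 5.40e-23) in Fib_2-like cells. Macrophages had 1.14 ± 0.98 CPM, with 15 UMIs in 812 cells, and a share of cells with a UMI of 1.85% that is close to the 1.45% in T cells.

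Ptgis, for prostacyclin synthase, lies on chromosome 2 (167191805-167240604, minus strand, ENSMUSG00000017969) and overlaps 2 genes on the other strand. It had 215 ± 27.0 CPM in Fib_0-like cells and 137 ± 57.4 in Fib_2-like cells, with Fib_0 higher in 10 of 12 libraries. Fib_3-like cells had 41.5 ± 14.1 CPM, Fib_1-like cells 7.55 ± 3.43 and macrophages 1.04 ± 1.02, each below its neighbour in 12 of 12 libraries. In the test Ptgis gave log2 fold changes of 2.75 (SE 0.09, adjusted p = 1.64e-33) in Fib_0-like, 1.61 (SE 0.09, adjusted p = 1.10e-21) in Fib_2-like and -3.87 (SE 0.13, adjusted p = 8.36e-32) in Fib_1-like cells. In Fib_3-like cells it was -0.49 (SE 0.10, adjusted p = 8.91e-05), and 0.03 (adjusted p = 0.905) where the gates used only the markers that the study text does not name.

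Ptgds, for the lipocalin-type prostaglandin D synthase (chromosome 2, 25466709-25470046, minus strand, ENSMUSG00000015090), was almost not detected. Its mean was at most 0.63 CPM in any population. Fib_0-like cells held 79 UMIs in 38 cells, of which 18 were in 1 cell, and Fib_3-like cells held 38 UMIs in 8 cells, of which 32 were in 2 cells. Macrophages held 0 UMIs in 812 cells.

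Hpgd, for the dehydrogenase that inactivates prostaglandins, lies on chromosome 8 (56294585-56321043, plus strand, ENSMUSG00000031613) and overlaps Gm45540 on the same strand. Its level was 134 ± 42.4 CPM in Fib_1-like cells, 78.8 ± 26.0 in macrophages, 48.6 ± 17.2 in Fib_2-like, 35.7 ± 16.9 in Fib_3-like and 19.0 ± 8.00 in Fib_0-like cells. All neighbours in this order overlapped in range, with the higher one on top in 10 or 11 of 12 libraries. Hpgd was higher in Fib_1-like cells by a log2 fold change of 2.07 (SE 0.12, adjusted p = 1.17e-21), and the change in Fib_0-like cells was -1.62 (SE 0.14, adjusted p = 3.83e-15). Fib_0-like cells were thus high in Ptgs2 and low in Hpgd, and Fib_1-like cells the reverse.

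The receptor genes Ptger2, Ptger3 and Ptger4 were lower in Fib_0-like cells than in the other subsets, while Ptgfr was not called there (-0.47, SE 0.27, adjusted p = 0.121). Ptgfr was called lower in 2 of 20 alternatives. These were the removal of VCD_High_PBDE_E2 (-0.64, adjusted p = 0.0353) and gates from the markers that the study text does not name (-0.62, adjusted p = 0.0364). Ptger3, for the prostaglandin E2 receptor EP3, lies on chromosome 3 (157566892-157645888, plus strand, ENSMUSG00000040016) and overlaps no other gene. It had 43.2 ± 13.2 CPM in Fib_2-like and 26.6 ± 10.9 in Fib_1-like cells, with Fib_2 higher in 11 of 12 libraries, and 2.56 ± 1.97 in Fib_3-like, 1.01 ± 0.55 in Fib_0-like cells and 0.71 ± 1.29 in macrophages. Log2 fold changes were 3.30 (SE 0.13, adjusted p = 2.24e-28) in Fib_2-like, 2.43 (SE 0.13, adjusted p = 7.48e-23) in Fib_1-like and -3.69 (SE 0.19, adjusted p = 1.13e-23) in Fib_0-like cells. A Ptger3 UMI was found in 38.1% of Fib_2-like and 28.6% of Fib_1-like cells, against 1.66% of Fib_0-like cells and 0.33% of T cells. At 5000 UMIs per cell the shares were 21.2%, 11.8% and 0.363% in the 3 subsets. Mast-cell-like cells (51 cells) had 39.6 CPM (interval 19.8 to 70.8).

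Ptger4, for the receptor EP4 (chromosome 15, 5206661-5244187, minus strand, ENSMUSG00000039942, overlapping 2 genes on the other strand), had 48.9 ± 8.11 CPM in macrophages and 17.8 ± 5.52 in Fib_2-like cells, and their ranges did not overlap. Fib_3-like (6.07 ± 1.99) and Fib_1-like cells (5.95 ± 2.16) did not differ beyond their spread, and Fib_0-like cells had 0.84 ± 0.32. Log2 fold changes were 3.25 (SE 0.13, adjusted p = 2.02e-28) in macrophages, 2.41 (SE 0.13, adjusted p = 8.62e-23) in Fib_2-like and -3.23 (SE 0.16, adjusted p = 7.19e-25) in Fib_0-like cells. T cells had 60.8 CPM of Ptger4 (interval 56.2 to 65.6) and are no background for this gene. B cells had 3.46 CPM (interval 1.12 to 8.07) at a median of 15474 UMIs.

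Ptger2, for the receptor EP2 (chromosome 14, 44988195-45003820, plus strand, ENSMUSG00000037759, overlapping 2 genes on the other strand), had 11.9 ± 6.91 CPM in macrophages, with a UMI in 93 of 812 cells (11.5%), and at most 0.93 CPM in the subsets. Macrophages differed from the subsets by a log2 fold change of 4.85 (SE 0.27, adjusted p = 5.15e-23). Among smaller cell classes, neutrophil-like cells had 11.3 CPM from 6 UMIs (interval 4.15 to 24.6) and T cells 5.85 (4.49 to 7.48). Dendritic-like cells had 4.94 CPM, endothelial-like cells 4.75 and NK cells 1.17, while B cells, luminal-like and mast-cell-like cells held 0 UMIs. Fib_3-like cells were higher than the mean of the other subsets by 1.47 (SE 0.37, adjusted p = 0.000997), a call that held in 20 of 20 alternatives. It rests on 34 UMIs. Fib_3-like cells (0.93 CPM) were above Fib_1-like cells (0.56) in 7 of 12 libraries, with overlapping ranges. Fib_0-like cells were lowest, with 0.097 CPM. In Fib_1-like cells the log2 fold change was 0.75 (SE 0.32, adjusted p = 0.0472), a call that was lost in 9 of 20 alternatives, 7 of them the removal of 1 library (Intact, VCD_E2, VCD_E2_P4, VCD_Low_E2, VCD_Low_E2_P4, VCD_High_PBDE_E2 or VCD_High_PBDE_E2_P4), with the lowest value without VCD_Low_E2_P4 (0.61, adjusted p = 0.151).

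Ptgfr, for the prostaglandin F receptor (chromosome 3, 151796502-151837630, minus strand, ENSMUSG00000028036, overlapping 1 gene on the other strand), had 14.2 ± 7.42 CPM in Fib_2-like, 2.72 ± 1.04 in Fib_3-like, 2.09 ± 1.39 in Fib_0-like and 0.65 ± 0.32 in Fib_1-like cells. The Fib_3 and Fib_0 values did not differ beyond their spread (Fib_3 higher in 7 of 12 libraries). Fib_2-like cells were higher than the other subsets by a log2 fold change of 3.01 (SE 0.24, adjusted p = 4.96e-14), and the change in Fib_1-like cells was -2.62 (SE 0.34, adjusted p = 1.68e-08). Macrophages held 0 UMIs of 11108505, so that with a floor of 3 counts over the group (0.27 CPM) their level was at least 18.2-fold lower than the mean of the 4 subsets.

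Over the 60 sums of 5 populations and 12 libraries, which share their libraries, the genes whose log2(CPM + 1) ran closest to each member with at least 10 CPM were found among 8103 genes of at least 10 CPM. The genes close to Ptgs2 included Akr1c18 (Pearson r = 0.86) and Pi16 (0.85), the latter a Fib_0 gate marker. Ptgs1 ran closest to Sec14l1, Phf11b and Adgrg6 (each 0.92), Ptges to Sobp, Fst and Ptrf (0.97 each), and Ptgis to Col14a1 (0.97), AW551984 (0.94) and Wnt2 (0.93). Hpgd ran closest to Prkar2b (0.85), Pparg (0.82, a Fib_1 gate marker) and Rogdi (0.81), Ptger3 to Lamc3 (0.94), Hc (0.94) and Tbx2 (0.93), and Ptger4 to Nrp2, Fnbp1 and Mertk (0.94 each).

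The rest of the pathway was read from a list of 21 genes for phospholipases, other synthases, reductases, transporters and receptors. Of the 18 tested, 16 were called in Fib_0-like cells (10 higher, 6 lower), 10 for Fib_1 (6 higher, 4 lower), 10 for Fib_2 (3 higher, 7 lower), 10 for Fib_3 (4 higher, 6 lower) and 15 in macrophages (7 higher, 8 lower), beside 66.8%, 53%, 56.8%, 44.8% and 80.3% of all genes tested, and the counts for Fib_1, Fib_2 and macrophages lay near those shares. Akr1c18, an aldo-keto reductase that inactivates progesterone and can form prostaglandin F2α, had 560.5 ± 136 CPM in Fib_0-like cells and at most 16.0 elsewhere (log2 fold change 6.34, SE 0.18, adjusted p = 3.45e-35). Pla2g4a, the cytosolic phospholipase that releases arachidonic acid, had 70.0 ± 4.60 CPM in Fib_0-like cells (log2 fold change 1.37, SE 0.04, adjusted p = 1.35e-34). The phospholipase gene, a cyclooxygenase gene and the prostacyclin synthase gene were therefore higher in the same subset.

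Ptgir, the prostacyclin receptor, had 25.3 ± 6.97 CPM in Fib_1-like, 17.0 ± 4.85 in Fib_3-like and 10.9 ± 5.25 in Fib_2-like cells but 0.58 ± 0.37 in Fib_0-like cells (log2 fold change -4.72, SE 0.18, adjusted p = 3.20e-29), the subset with the highest Ptgis level. Slco2a1, the prostaglandin uptake transporter, had 99.9 ± 37.4 CPM in Fib_0-like and 96.8 ± 49.4 in Fib_1-like cells, and Tbxa2r, the thromboxane receptor, was highest in Fib_3-like cells (4.40 ± 1.47 CPM, log2 fold change 2.92, SE 0.18). Macrophages had 135.9 ± 24.96 CPM of Tbxas1 (thromboxane synthase, log2 fold change 9.09), 68.2 ± 27.1 of Hpgds (hematopoietic prostaglandin D synthase, 7.66) and 91.0 ± 44.0 of the secreted phospholipase gene Pla2g2d (7.96), each at most 0.72 CPM in every fibroblast subset. Outside the 5 populations, mast-cell-like cells (51 cells) had 374 CPM of Hpgds (interval 306 to 453). Dendritic-like cells (83 cells) had 68.5 CPM of Tbxas1 (interval 56.3 to 82.5). The receptor genes for prostaglandin D2, Ptgdr and Ptgdr2, were at most 0.047 CPM in all 5 populations.

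**Figure D2:**
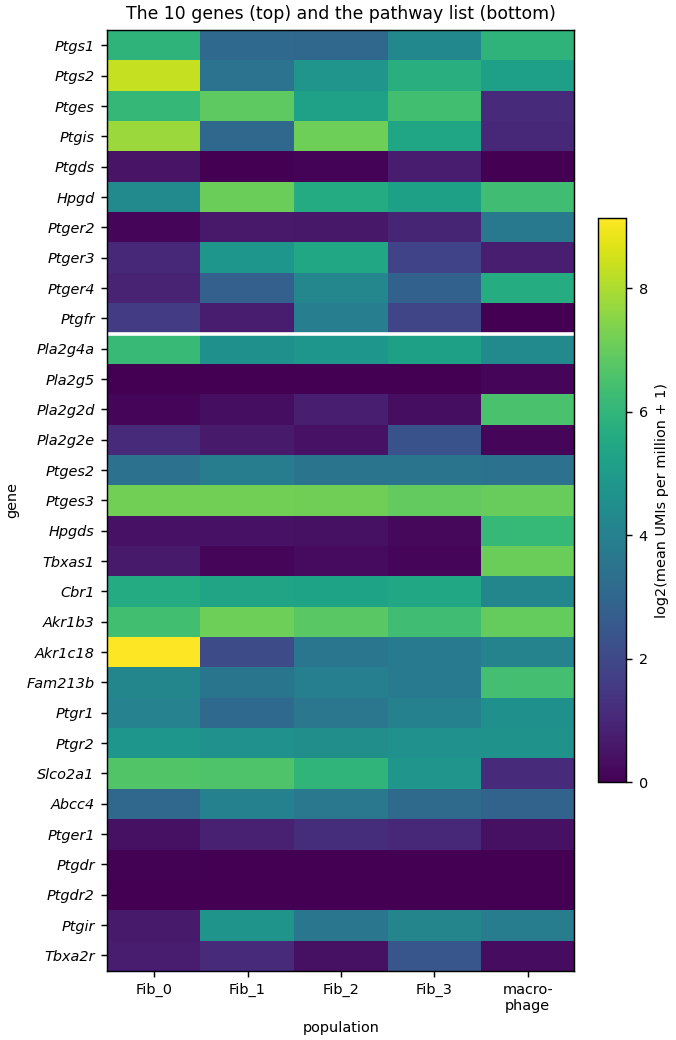
Mean level over the 12 libraries, as log2(mean CPM + 1) by colour, of the 10 genes (above the white line) and of the 21 genes of the pathway list (below it) in the 5 populations. Akr1c18 and Ptgs2 are each brighter in Fib_0 than in the other populations, and among the 5 populations Pla2g2d, Hpgds and Tbxas1 are bright in macrophages only.

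With E2, some members were called as changed in the fibroblast subsets, and in opposite directions. Ptgs1 fell in Fib_0-like cells and rose in Fib_1-like and Fib_2-like cells, Ptgis rose in Fib_1-like and Fib_2-like cells, and Ptgfr fell in Fib_2-like cells and rose in Fib_0-like cells. Ptger3 and Hpgd fell in Fib_2-like cells, and Ptger3 fell in Fib_3-like cells. Not all of these calls were firm. Those of Ptgs1 and Ptger3 in Fib_2-like cells and of Ptgfr in Fib_0-like cells were each lost in 10 of 19 alternatives. That of Ptger3 in Fib_3-like cells was lost in 12 of 18. The 6 libraries with E2 (3 of them with P4) were tested against the 3 without hormone with PBDE level as a covariate, by edgeR within each population. Of the members tested, 2 of 9 were called in Fib_0-like cells (background 10.4% of genes), 2 of 7 in Fib_1-like (8.39%), 5 of 8 in Fib_2-like (33.7%) and 1 of 10 in Fib_3-like cells (3.43%). In macrophages 0 of 5 were called (0.411%), with 0 at an unadjusted p under 0.05 and 0 by DESeq2. The median log2 fold change of the members tested was 0.13, 0.28, -0.33, -0.07 and 0.05 in the 5 populations, beside 0.00, 0.00, -0.02, -0.01 and -0.02 over all genes.

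**Figure D3:**
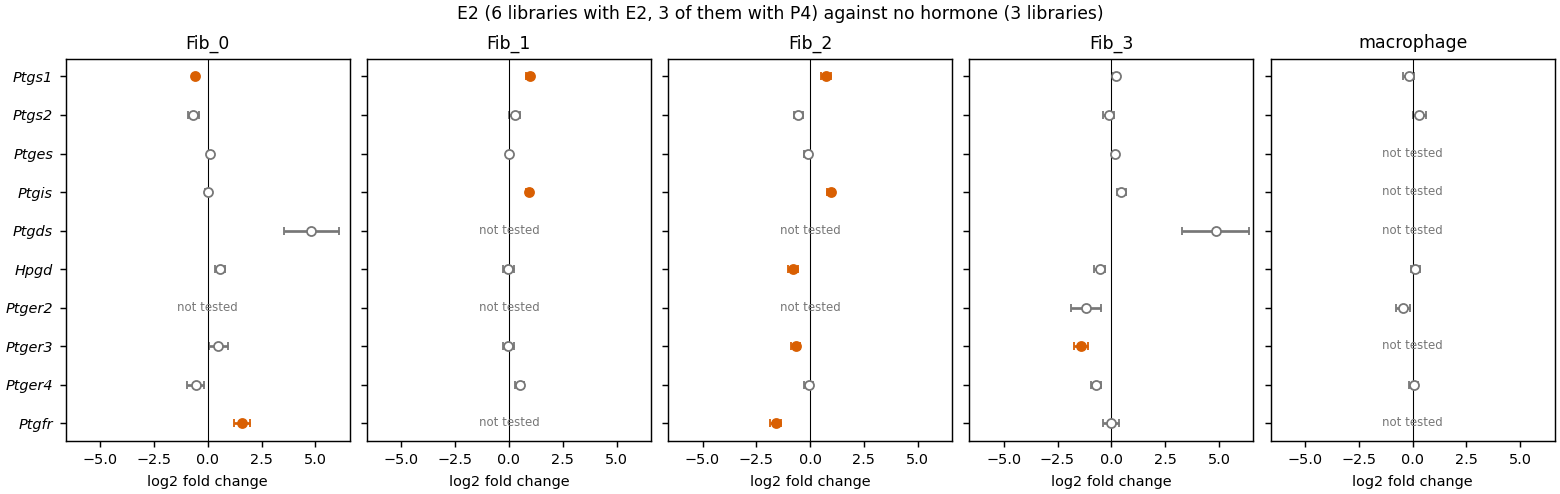
Log2 fold change of each gene for E2 (6 libraries) against no hormone (3 libraries) in each population, with bars of 1 SE. Filled orange points are called and open grey points are not. Ptgs1 lies left of 0 in Fib_0 and right of 0 in Fib_1 and Fib_2, and the wide bars of Ptgds rest on few UMIs.

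Within the no, low and high PBDE levels taken singly, 9 of these 10 calls had the same direction at all 3 levels, the exception being Ptger3 in Fib_2-like cells. The calls came from these same libraries, so the shared direction is a description and not a separate test. It was read from the mean of the E2 library and the library with E2 and P4. For Hpgd in Fib_2-like cells at the high level these went opposite ways (35.0 and 71.1 CPM, against 62.3 without hormone). At the no and high levels, where all libraries of a level carry 1 code, the log2 ratio of the E2 libraries to their control for Ptgs1 was -0.52 and -0.72 in Fib_0-like cells, 1.00 and 0.76 in Fib_1-like cells and 1.03 and 0.74 in Fib_2-like cells. Ptgfr had -1.62 and -1.20 in Fib_2-like and 1.39 and 2.17 in Fib_0-like cells, Ptgis 1.01 and 0.76 in Fib_1-like cells, Hpgd -0.77 and -0.23 in Fib_2-like cells, and Ptger3 -1.79 and -1.57 in Fib_3-like cells.

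Whether the E2 response differed between the 4 fibroblast subsets was tested directly by the interaction of subset and E2. Of the 10 members, 5 were called, where 28.2% of 12853 genes tested were called. The adjusted p was 3.84e-06 for Ptgs1, 0.000153 for Ptgfr, 0.00819 for Ptgis, 0.016 for Hpgd and 0.0163 for Ptger3. The calls of Ptgs1 and Ptgfr held in 19 of 19 alternatives, those of Ptgis and Ptger3 in 16 and that of Hpgd in 15. Without the VCD_High_PBDE library 2 members were called and without VCD_Low_PBDE 3.

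In Fib_0-like cells Ptgs1 had 71.9 CPM in VCD_Vehicle, 68.1 in VCD_Low_PBDE and 89.7 in VCD_High_PBDE. The 6 libraries with E2 had 43.9 at the lowest, 50.7 at the median and 60.5 at the highest, so the groups did not overlap, and each was below the library without hormone at its own PBDE level. Expressed as a log2 fold change the difference was -0.57 (SE 0.08, adjusted p = 0.00679). VCD_E2_ICI had 78.9 CPM (interval 73.4 to 84.7), within the range of the 3 libraries without hormone, and Intact 56.0 (51.9 to 60.3), within that of the E2 libraries. VCD_Vehicle_NormEnv went the other way, with 43.9 CPM (40.9 to 47.1) and no hormone. With VCD_Vehicle_NormEnv in place of VCD_Vehicle the log2 fold change was -0.36 (adjusted p = 0.177), and without the 3 low PBDE libraries it was -0.61 (adjusted p = 0.0688).

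In Fib_1-like cells Ptgs1 moved the other way, from 4.77, 4.63 and 6.90 CPM without hormone to between 8.23 and 12.7 (median 10.8) with E2. The groups did not overlap, and the log2 fold change was 0.96 (SE 0.16, adjusted p = 0.00722). VCD_Vehicle_NormEnv (5.86, interval 4.28 to 7.84), Intact (4.39, 2.94 to 6.30) and VCD_E2_ICI (2.85, 1.63 to 4.63) lay below all 6 E2 libraries. Without VCD_Low_PBDE the adjusted p was 0.0578. In Fib_2-like cells the 3 libraries without hormone had 4.51, 5.59 and 6.32 CPM and those with E2 7.22 to 11.1 (median 9.68), again without overlap (log2 fold change 0.73, SE 0.22, adjusted p = 0.0265). This call was lost in 10 of 19 alternatives, among them the removal of VCD_Vehicle (0.56, adjusted p = 0.188), VCD_E2_P4, VCD_Low_PBDE, VCD_Low_E2 and VCD_High_PBDE (adjusted p 0.0506 to 0.0833). In Fib_3-like cells, with 14.6 to 20.9 CPM without hormone and 14.4 to 22.8 with E2, the log2 fold change was 0.21 (SE 0.17, adjusted p = 0.521).

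The response of Ptgis in Fib_2-like cells was the only E2 call that held under every alternative run. It had 71.1, 99.5 and 92.9 CPM without hormone in the no, low and high PBDE level, and 147.9 at the lowest, 164 at the median and 244 at the highest with E2. Every E2 library was above every library without hormone, and the log2 fold change of 0.95 (SE 0.15, adjusted p = 0.000697) was called in 19 of 19 alternatives (0.73 to 1.18). Within the PBDE levels the log2 ratio of the mean of the E2 libraries to the library without hormone was 1.48 with no PBDE, 0.69 at the low and 1.04 at the high level. Intact (91.0, interval 83.0 to 99.7), VCD_Vehicle_NormEnv (74.9, 61.9 to 89.9) and VCD_E2_ICI (111, 98.3 to 125) lay below all 6 E2 libraries.

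In Fib_1-like cells Ptgis had 4.14, 5.08 and 5.67 CPM without hormone and 5.37 to 14.5 (median 10.4) with E2, with overlap between the groups (log2 fold change 0.93, SE 0.16, adjusted p = 0.00662). With a gate margin of 1.0 the log2 fold change was 0.04 (adjusted p = 0.979), and without VCD_Low_PBDE it was 0.80 (adjusted p = 0.0618). In Fib_0-like cells, where Ptgis is highest, the log2 fold change was 0.00 (SE 0.10, adjusted p = 0.997), with 193 to 239 CPM without hormone and 204 to 279.5 with E2.

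Ptgfr had 15.0, 23.8 and 22.6 CPM without hormone in Fib_2-like cells and 2.21 at the lowest, 8.69 at the median and 10.4 at the highest with E2. All 6 E2 libraries lay below the 3 without hormone, and also below Intact (17.5, interval 14.1 to 21.5), VCD_Vehicle_NormEnv (25.4, 18.1 to 34.7) and VCD_E2_ICI (18.7, 13.6 to 24.98). The log2 fold change was -1.60 (SE 0.25, adjusted p = 0.000616), and its call was lost in 1 of 19 alternatives, the gates from the other markers (-0.87, adjusted p = 0.0732). In Fib_0-like cells Ptgfr was low, with 0.90, 0.76 and 1.03 CPM without hormone and 0.88 to 5.19 (median 2.69) with E2, and VCD_Low_E2 lay among the libraries without hormone. The log2 fold change of 1.59 (SE 0.37, adjusted p = 0.0355) lost its call in 10 of 19 alternatives. Of these, 7 were the removal of 1 library, namely VCD_Vehicle, VCD_E2, VCD_E2_P4, VCD_Low_PBDE, VCD_Low_E2_P4, VCD_High_PBDE or VCD_High_PBDE_E2_P4 (adjusted p 0.0612 to 0.137).

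Ptger3 in Fib_2-like cells had 49.6, 57.9 and 37.9 CPM without hormone and 20.6 to 48.9 (median 34.6) with E2. The groups overlapped, the log2 ratio was -0.74 with no PBDE, -1.03 at the low level and 0.34 at the high level, and the pooled log2 fold change of -0.68 (SE 0.22, adjusted p = 0.0362) was lost in 10 of 19 alternatives (adjusted p 0.319 without VCD_Low_PBDE, 0.179 without VCD_Vehicle, and 0.0566 to 0.0864 without VCD_E2_P4, VCD_Low_E2 or VCD_Low_E2_P4). In Fib_3-like cells Ptger3 was near the detection limit, with 3.87, 4.18 and 7.65 CPM without hormone and 0.73 to 3.01 (median 1.83) with E2 (log2 fold change -1.41, SE 0.34, adjusted p = 0.042). The groups did not overlap, but VCD_Vehicle_NormEnv had 1.49 CPM from 6 UMIs (interval 0.55 to 3.25), and 12 of 18 alternatives lost the call, 8 of them the removal of any 1 library of the 9 but VCD_Low_E2_P4 (adjusted p 0.0595 to 0.173).

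Hpgd in Fib_2-like cells had 46.8, 67.9 and 62.3 CPM without hormone, and 5 of the 6 libraries with E2 had 20.7 to 36.5. The other, VCD_High_PBDE_E2_P4, had 71.1, the highest of all 9. Its log2 fold change was -0.81 (SE 0.23, adjusted p = 0.019), and the call was lost in 6 of 19 alternatives, among them the removal of VCD_Vehicle (adjusted p = 0.0913), VCD_Low_PBDE (0.143) and VCD_Low_E2_P4 (0.0578). Intact (41.0, interval 35.6 to 46.9) lay below the libraries without hormone of the VCD groups. In Fib_1-like cells, the subset with the most Hpgd, the log2 fold change was -0.04 (SE 0.26, adjusted p = 0.944).

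**Figure D4:**
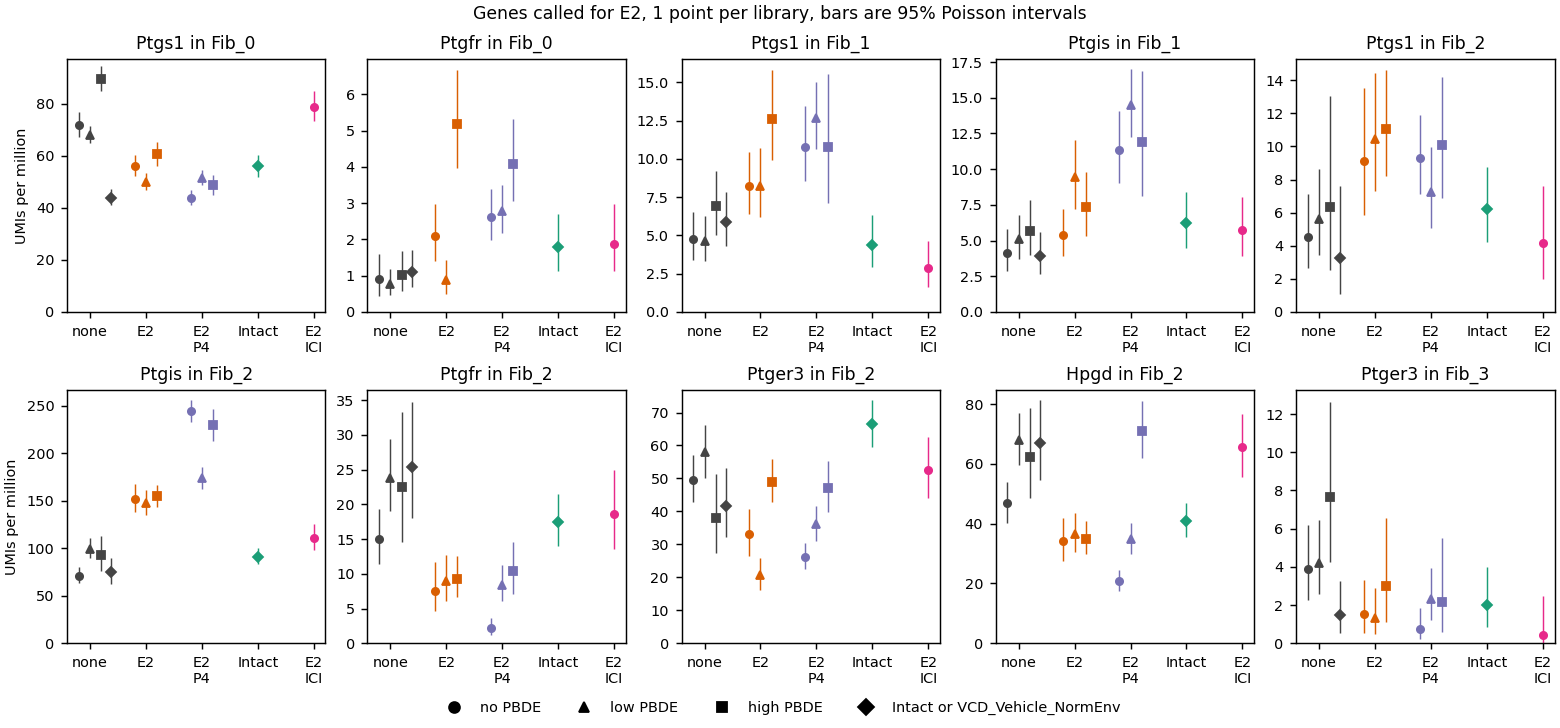
Level in CPM of each called gene and subset, with 1 point per library and bars of 95% Poisson intervals, by hormone state and with the marker shape giving the PBDE level. Ptgis in Fib_2 is higher and Ptgfr in Fib_2 lower in all 6 libraries with E2 than in all others, while Ptgs1 in Fib_0 has VCD_Vehicle_NormEnv among the low values.

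Ptgs2, the inducible cyclooxygenase, was not called for E2 in any population. In Fib_0-like cells it had 246 CPM in VCD_Vehicle, 539 in VCD_Low_PBDE and 459 in VCD_High_PBDE, and 195.5 to 375 (median 230.1) with E2, and the groups overlapped. The log2 fold change was -0.67 (SE 0.27, adjusted p = 0.147), and -1.05 (adjusted p = 0.0326) without VCD_Vehicle, the lowest of the 3 libraries without hormone. Intact had 391 CPM (interval 380 to 402), VCD_Vehicle_NormEnv 275.5 (268 to 283) and VCD_E2_ICI 372 (360.0 to 385). In Fib_2-like cells the log2 fold change was -0.55 (SE 0.21, adjusted p = 0.061) and was called in 5 of 19 alternatives, among them those without VCD_E2 (-0.72, adjusted p = 0.0251) and without VCD_Low_E2_P4 (-0.70, adjusted p = 0.033). In macrophages Ptgs2 ranged from 8.49 to 71.4 CPM without hormone and from 24.6 to 81.2 with E2 (log2 fold change 0.31, SE 0.30, adjusted p = 0.786).

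The immediate early genes were lower with E2 in some subsets and are given beside these values. In Fib_2-like cells 11 of the 12 were called for E2, 10 of them lower (Atf3 -2.58, Jun -1.86) and Nr4a2 higher (0.61), and their summed level went from 22710 to 30309 CPM without hormone to 11628 to 16534 with E2 and 8745 to 10535 with E2 and P4. In Fib_1-like cells 8 were called, all lower, in Fib_3-like cells 2 (Jun and Atf3, both lower) and in Fib_0-like cells 1 (Junb, lower). Over all genes 33.7% were called in Fib_2-like, 8.39% in Fib_1-like, 3.43% in Fib_3-like and 10.4% in Fib_0-like cells, and the Fib_0 count lay near that share. In macrophages 0 of 12 were called by edgeR (0.411% of all genes), with 2 at an unadjusted p under 0.05 and 1 called by DESeq2. For P4 added to E2, 4 of the 12 were called in Fib_2-like cells (2.84% of all genes). In the other 4 populations 0 were called (0.0622% to 0.151% of all genes). There, 3, 7, 3 and 3 had an unadjusted p under 0.05, and DESeq2 called 1, 2, 0 and 0, in Fib_0, Fib_1, Fib_3 and macrophages. The part of these genes in the E2 values of the members was not tested.

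Some markers that define Fib_1-like and Fib_2-like cells also moved with E2. In Fib_1-like cells Cd36 (log2 fold change 1.90) and Fabp4 (1.35) rose and Smoc2 (-0.96) fell, while Lpl, Pparg and Col15a1 were not called. The markers of Fib_0 in Fib_0-like cells had log2 fold changes of -0.18 to 0.15 (adjusted p 0.115 to 0.567) and those of Fib_3 in Fib_3-like cells -0.33 to 0.65 (adjusted p 0.0703 to 0.991). In Fib_0-like cells the marker panels of Fib_1 and Fib_3 were higher with E2, the 6 Fib_1 markers at 228 to 327 CPM without hormone and 338 to 476 with E2, and the 5 Fib_3 markers at 54.3 to 100.4 and 117 to 160, with Mfap4 (2.34), Fmo2 (1.40) and Gas6 (1.11) among the single markers called. The 6 Fib_2 markers overlapped there, at 321 to 440 CPM without hormone, 324 to 505 with E2 and 291 to 390 with E2 and P4. Of them Mfap4 alone was called (2.34). The summed level of the 6 Fib_2 markers in Fib_2-like cells was 3182 to 3498 CPM without hormone, 4674 to 9955 with E2 and 9940 to 11933 with E2 and P4. Postn rose (log2 fold change 3.29, adjusted p = 4.41e-06) and Mfap4 rose (1.04), while Penk (-2.02), Enpp2 (-1.67) and Tnc (-0.94) fell. The 6 Fib_1 markers in Fib_2-like cells went from 1367 to 1542 CPM without hormone to 2323 to 3073 with E2, and the 6 Fib_2 markers in Fib_1-like cells from 785 to 891 to between 992 and 4262. The part of these shifts in the responses of Ptgis, Ptgfr, Ptgs1, Ptger3 and Hpgd was not tested. The 7 macrophage markers summed to 4.33 to 13.5 CPM in every subset and hormone state of the layout. The fibroblast gate allows at most 1 of these markers per cell, so the low sums were set by the gate.

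Ptgds in Fib_0-like cells had 1 UMI of 54037209 in the 3 libraries without hormone and 76 of 104925572 in the 6 with E2, with at least 2 UMIs in each of the 6. Their ratio was 39.1 (95% interval 6.82 to 1566, counting error only), and the log2 fold change of 4.81 (SE 1.28, adjusted p = 0.0526) was called in 6 of 19 alternatives, 2 of them the removal of VCD_High_PBDE_E2 (4.13, adjusted p = 0.0263) or VCD_High_PBDE_E2_P4 (5.37, adjusted p = 0.0256). Of these UMIs 21 were in VCD_High_PBDE_E2, and Intact had 0, VCD_Vehicle_NormEnv 1 and VCD_E2_ICI 1. At 1.79 CPM in the highest library this remained a rare transcript in Fib_0-like cells. The interval takes UMIs as independent, but the 79 Fib_0 UMIs of all 12 libraries lay in 38 cells, with 18 in 1 cell. In Fib_3-like cells Ptgds had 0 CPM without hormone and 0 to 3.27 with E2. Its log2 fold change was 4.84 (SE 1.58, adjusted p = 0.133), not called in any alternative, and 32 of the 38 UMIs there were in 2 cells.

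The other members showed no call for E2. Ptges differed little, with log2 fold changes of 0.13 (SE 0.11) for Fib_0, 0.02 (SE 0.12) for Fib_1, -0.11 (SE 0.16) for Fib_2 and 0.16 (SE 0.09) for Fib_3. Ptger4 had -0.56 (SE 0.40), 0.50 (SE 0.20), -0.07 (SE 0.20) and -0.71 (SE 0.24) in the same order, the last with groups that did not overlap (6.38 to 9.21 CPM without hormone and 3.11 to 6.02 with E2, adjusted p = 0.135). In macrophages the log2 fold change was 0.05 (SE 0.22) for Ptger4, -0.45 (SE 0.31) for Ptger2, -0.17 (SE 0.26) for Ptgs1 and 0.13 (SE 0.22) for Hpgd, in sums of 37 to 118 cells.

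Adding P4 to E2 gave no call by edgeR in any population. The counts were 0 of 9 for Fib_0 (background 0.0865%), 0 of 7 for Fib_1 (0.144%), 0 of 8 for Fib_2 (2.84%), 0 of 10 for Fib_3 (0.151%) and 0 of 5 for macrophages (0.0622%). At an unadjusted p under 0.05 there were 0, 2, 1, 3 and 0 members, and DESeq2 called 0 in each. The median log2 fold change of the members was -0.12, 0.30, 0.02, 0.40 and 0.18, beside 0.00, -0.01, -0.01, 0.00 and 0.00 over all genes. Ptgis had 7.37 CPM with E2 and 12.6 with E2 and P4 in Fib_1-like cells (log2 fold change 0.78, SE 0.17, adjusted p = 0.0906), 152 and 216 in Fib_2-like (0.49, SE 0.16, adjusted p = 0.142) and 38.2 and 60.0 in Fib_3-like cells (0.77, SE 0.22, adjusted p = 0.258). With no filter on low counts these 3 values were called (adjusted p = 0.0194, 0.00843 and 0.00407), and with gates from the other markers the Fib_1 value was 1.86 (adjusted p = 0.0197). In Fib_3-like cells Ptgs2 had 37.4 and 65.4 CPM (0.91, SE 0.31, adjusted p = 0.371), and without VCD_Low_E2_P4 its log2 fold change was 1.52 (adjusted p = 0.0328), without the low PBDE libraries 1.62 (adjusted p = 0.00807) and with no filter 0.91 (adjusted p = 0.00417).

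Of the pathway list, 2 of 15 genes tested were called for E2 in Fib_0-like cells, both higher (Ptgr1 0.65, a reductase of prostaglandin metabolites, and Pla2g2e 2.47, a secreted phospholipase), a share near the 10.4% of all genes. In Fib_1-like cells 2 of 13 were called, both higher (Slco2a1 0.80 and Akr1b3 0.34, background 8.39%), and in Fib_2-like cells 6 of 12, 4 higher and 2 lower (background 33.7%, 4 of 12 called by DESeq2). Slco2a1 rose there from a mean of 23.9 to 90.7 CPM (log2 fold change 1.65, SE 0.19, adjusted p = 9.23e-05), Akr1c18 from 3.40 to 18.5 (2.14, SE 0.58, adjusted p = 0.0153), Abcc4, an efflux transporter, by 0.68 and Akr1b3 by 0.52. The prostacyclin receptor gene Ptgir fell by 1.07 on the log2 scale (adjusted p = 0.0184) and Cbr1, a carbonyl reductase, fell by 0.42. The Ptgir groups overlapped, with 12.8 to 19.9 CPM without hormone and 3.46 to 16.8 with E2, and 1 of the 6 E2 libraries was above its own control. In Fib_3-like cells 0 of 14 were called by edgeR (background 3.43%, 7 at an unadjusted p under 0.05, 0 by DESeq2). In macrophages 0 of 13 were called (background 0.411%, 1 at an unadjusted p under 0.05, 0 by DESeq2). For P4 added to E2 the list had 0 calls by edgeR in all 5 populations (background 0.0622% to 2.84%), with 2, 1, 1, 0 and 1 genes at an unadjusted p under 0.05 and 0, 1, 0, 0 and 0 called by DESeq2. For a difference in E2 response between subsets 5 of 15 were called (Akr1c18, Slco2a1, Akr1b3, Cbr1 and Fam213b, a prostamide reductase gene), a share close to the 28.2% of all genes.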

How the data were processed

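Dissociated mammary glands of 12 mouse groups were sequenced as droplet libraries (Chromium v3). Per the labels, the authors processed reads with Cell Ranger 3.1.0 on mm10, and the deposited matrices hold raw UMI counts per gene and barcode. The number of animals behind each library was not given in the sources used here.

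Cells with at least 500 genes, 1000 UMIs and at most 5% mitochondrial UMIs were kept. Fibroblasts had no UMI of 6 negative-selection genes, at least 4 of 5 fibroblast markers and at most 1 marker of any other class, and went to the panel of 5 or 6 markers with the highest mean standardised level, if above 0 and by a margin of 0.5 SD. Macrophages had at least 5 of 7 markers and a Ptprc or Cd52 UMI. No doublet caller was run, but cells with more than 1 marker of another class were left out. UMI counts were summed per library and population (at least 20 cells) and tested with edgeR 4.0.16 (quasi-likelihood, TMM, filtered on low counts, R 4.3.3), with Benjamini-Hochberg adjustment over all genes tested and a threshold of 0.05. Every adjusted p is from edgeR unless DESeq2 (1.42.0) is named. The E2 fits had 4 residual degrees of freedom. Groups were taken from the treatment labels, and the 3 groups outside the layout of hormone and PBDE entered only the population test, except that VCD_Vehicle_NormEnv was also tried as the vehicle library of the E2 tests. On simulated data with 200 genes changed by 1 on the log2 scale, the fits were tested over all comparisons and recovered 15% (the subset difference) to 98% of them, with at most 5.77% false among the calls. Shares of cells were also taken after thinning to 5000 UMIs. Poisson intervals are exact, at 95%, and cover counting error only, and the depth of the libraries is given in the text as ranges. Promoter windows are from RefSeq.

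All 10 genes are described. Of 21 further pathway genes and 12 immediate early genes, those named passed a test or define a level described. For each member of at least 10 CPM the 3 genes with the most similar pattern were named, except 1 that is not reported here. Members and lists were chosen with earlier results of these data known. Alternatives were other marker panels, a wider margin, a looser mitochondrial limit, DESeq2, total UMI count as size, no filter, another vehicle library, no low PBDE libraries, and leaving out each library.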

Additional observations from a re-analysis of the deposited data

Results flagged for a closer look

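Of the 10 genes, 5 had an E2 response that differed between the 4 fibroblast subsets by the edgeR interaction test, adjusted over all genes tested, where 28.2% of all genes were called. They were Ptgs1 (adjusted p = 3.8e-06), with log2 fold changes of -0.57 in Fib_0, 0.96 in Fib_1, 0.73 in Fib_2 and 0.21 in Fib_3, and Ptgfr (adjusted p = 0.00015), with 1.59 in Fib_0, -1.60 in Fib_2 and -0.02 in Fib_3. Ptgis (adjusted p = 0.0082) had 0.00, 0.93, 0.95 and 0.46 in Fib_0 to Fib_3, and Ptger3 (adjusted p = 0.016) had 0.50, -0.02, -0.68 and -1.41. Hpgd (adjusted p = 0.016) had 0.57, -0.04, -0.81 and -0.54. In Fib_1-like and Fib_2-like cells 8 and 11 of 12 immediate early genes were called for E2 (8.39% and 33.7% of all genes), beside 1 in Fib_0-like and 2 in Fib_3-like cells (10.4% and 3.43%). Some gate markers of Fib_1 and Fib_2 moved in their own subsets, in both directions. The part of the immediate early genes and the gate markers in these differences was not tested.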

How the results depend on the processing

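Replicate numbers pair no samples (1 library per group, each numbered 1). The fits between populations and for the subset difference compared populations within libraries, with library as a block, and the E2 and P4 fits had PBDE level as a term. Between populations, 737 of 760 values (38 calls under 20 alternatives) kept direction and call, 22 lost the call and 1 reversed: with gates from the other markers, Ptgis in Fib_3-like cells was 0.030 and the members called there were 4 in place of 7. For E2, 133 of 189 values of 10 calls kept the call and 56 lost it, with none reversed. Members called for E2 in Fib_0-like cells (2) were 1 with gates from the markers in the study text and 0 with VCD_Vehicle_NormEnv as vehicle or without the low PBDE libraries. In Fib_1-like cells (2) they were 1 with a margin of 1.0 and 0 without the low PBDE libraries. In Fib_2-like cells (5) they were 2 with either marker panel and 2 without the low PBDE libraries. In Fib_3-like cells (1) they were 2 with no filter and 0 with gates from the other markers, a margin of 1.0, DESeq2, VCD_Vehicle_NormEnv or no low PBDE libraries. For P4 (0 calls) there was 1 call in Fib_1-like cells with the other markers or no filter, 1 in Fib_2-like cells with no filter, and 2 with no filter and 1 without the low PBDE libraries in Fib_3-like cells. The subset difference (5) fell to 2 without the low PBDE libraries. Leaving out 1 library gave 1 to 3 members for E2 in Fib_0-like cells, 0 (without VCD_Low_PBDE) to 2 in Fib_1-like cells, 2 (without VCD_Vehicle or VCD_Low_PBDE) to 6 in Fib_2-like cells, and 0 to 2 in Fib_3-like cells, 0 to 1 (without VCD_Low_E2_P4) for P4 in Fib_3-like cells, and 2 (without VCD_High_PBDE) to 6 for the subset difference. Fewer samples or genes tested are part of some alternatives, and otherwise the cause was not tested. The share of all genes called under each alternative is not given here, so whether other calls fell with these is not shown. Low counts limit Ptgds, Ptger2, and Ptgfr outside Fib_2-like cells, and 37 to 118 macrophages per library limit their tests.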
